A study of Mus musculus with 72 samples.

Results

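The genes described here are 10 long mouse genes that carried several sites of changed dimethylation of histone H3 at lysine 27 (H3K27me2) in the nucleus accumbens of defeated mice. They are Angpt1, Tll1, Col5a2, Cpa6, Fstl5, Naaladl2, Klhl1, Cnbd1, Sugct and Zfp804b, 10 of 21951 protein-coding genes of the GENCODE M21 annotation, and all 10 were found. They were picked for many H3K27me2 sites or a strong H3K27me2 gain after defeat in these same libraries, so their H3K27me2 values are a description and carry no test. H3K27me1, the monomethylated form, was not used in the choice. Its sites were tested, but only those already listed as different in the same libraries. A site is a genomic interval listed by the authors as different between 2 groups. A site was given to a gene when it overlapped the gene body or the 1000 bp before the gene's start.

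Each mark was profiled in the nucleus accumbens, a part of the ventral striatum that handles reward, by CUT&RUN, where a nuclease tethered to an antibody cuts out the DNA that carries the mark. All mice were male, wildtype and, per the series' design text, adult. The labels give no strain. Chronic social defeat stress (CSDS) gave susceptible mice, resilient mice and their controls, each with 4 libraries of either mark. The second cohort gave ELS SbD mice, which had early life stress and subthreshold defeat, and Std control mice, standard-reared and without defeat, with 3 libraries each. That cohort also has ELS control and Std SbD libraries, 3 each per mark, which are not analysed here because no table used sets them against another group. In the table used, rearing and defeat both differ between ELS SbD and Std control mice and cannot be told apart. Whether each library stands for its own animal is not given in the labels. A p-value computed across libraries therefore measures only the spread between these libraries, which may be technical. The authors' p-values for chronic defeat come from a G-test on reads pooled by group, which leaves out that spread. The labelled tissue could not be checked against cell markers, because the 5 deposited tables list only sites that differ.

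H3K27me2 and H3K27me1 are steps of the same methylation ladder. Polycomb repressive complex 2, with Ezh1 or Ezh2 as its enzyme, adds the methyl groups. H3K27me2 covers much of the inactive genome, introns and gene deserts included, and is thought to hold enhancers in check, whereas H3K27me1 is found mainly in the bodies of transcribed genes. The named genes have unrelated roles. Angpt1 encodes a vessel-stabilising ligand, Tll1, Col5a2, Cpa6 and Fstl5 encode secreted or matrix proteins, Naaladl2 encodes a membrane protein, and Klhl1, Cnbd1, Sugct and Zfp804b encode proteins of the cell interior.

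Nearly every H3K27me2 site lay in an intron. Of the 89 sites in these genes over both H3K27me2 tables, 86 were intronic, 3 touched an exon and 0 fell within 1000 bp of a gene's start. The nearest lay 18.3 kb from a start, in Tll1. The share of these gene bodies that is intron is not given here, so a preference of the sites for introns was not tested. The exon whole inside an H3K27me2 site belongs to Col5a2 and is shown because it carries the repeat that defines a collagen chain. An H3K27me1 site covered exon 2 of Zfp804b, which carries the pattern that defines a zinc finger. Both are printed 5′ to 3′ on the minus strand from GENCODE transcripts of GRCm38 (mm10). Capitals mark glycine codons in the Col5a2 exon, and cysteine (TGT) and histidine (CAC or CAT) codons in the Zfp804b exon, in the annotated reading frame.
Col5a2 exon 41, chr1:45391076-45391129: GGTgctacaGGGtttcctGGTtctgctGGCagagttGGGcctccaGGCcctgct
Zfp804b exon 2, chr5:6876380-6876523: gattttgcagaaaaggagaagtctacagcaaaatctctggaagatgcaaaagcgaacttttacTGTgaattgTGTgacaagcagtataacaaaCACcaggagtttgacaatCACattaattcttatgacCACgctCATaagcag
In the 54 bases of the Col5a2 exon, 6 of 18 codons were glycine codons, spaced 3 codons apart. The 144 bases of the Zfp804b exon held 48 codons, 2 of them for cysteine and 4 for histidine.

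Depth differed between libraries. Per the file headers, H3K27me2 libraries averaged 10.56 to 40.63 reads per 1000-bp bin, H3K27me1 libraries of the defeat cohort 20.57 to 30.39, and H3K27me1 libraries of the early life cohort 5.0 to 7.78. The shallowest H3K27me2 library was control library 52. Values below are the authors' normalised reads in a site, that is, reads divided by a constant per library, and each table was normalised by itself. H3K27me2 values are given for susceptible libraries 50, 53, 56 and 59, resilient libraries 51, 54, 57 and 60, and control libraries 49, 52, 55 and 58, in that order. A log2 difference with its SE is from limma on log2(value + 1), stressed minus control.

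In the authors' deposited tables, called sites were those past an adjusted p of 0.05. The susceptible comparison had 25 sites in 9 of the 10 genes, 19 higher and 6 lower in susceptible mice. That table called 2075 sites, 4.3% of the windows tested, and 69.4% of them were higher. Among protein-coding genes at least as long as the shortest of the 10 (Col5a2, 129 kb), 4.27% held a site. The resilient comparison had 64 sites in all 10 genes, 49 higher and 15 lower. That table called 4659 sites (8.84% of windows), 79.5% of them higher, and 5.88% of genes of at least 129 kb held a site. The members were chosen for these counts, so the gap to other long genes is no result. Site-level changes were modest: in the authors' deposited tables the median log2 change was 0.5 at the higher sites of the 10 genes in both comparisons. At their lower sites it was -0.48 in the susceptible and -0.53 in the resilient comparison. Over all sites the medians were 0.48 and 0.49 at higher and -0.47 and -0.47 at lower sites. The susceptible and resilient comparisons share their 4 control libraries, and no susceptible library was set against a resilient one.

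**Figure D1:**
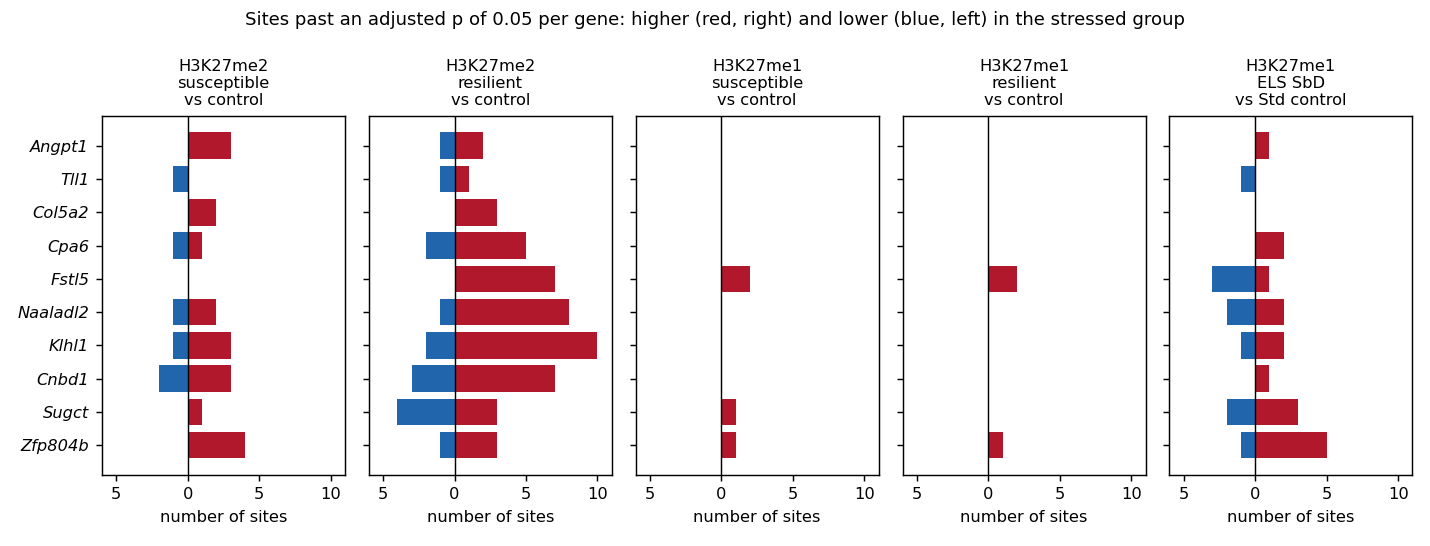
Number of sites past an adjusted p of 0.05 in each of the 10 genes (rows) in the 5 deposited tables (panels), with higher sites to the right in red and lower sites to the left in blue. H3K27me2 in resilient mice has most sites, with 10 higher and 2 lower in Klhl1, and Fstl5 has 7 there and 0 in susceptible mice.

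The susceptible calls leaned on control library 52. With it left out, 12 of the 25 sites still passed in a G-test rebuilt from the normalised reads, 6 of 19 higher (31.6%) and 6 of 6 lower. Among all sites called in this comparison, 57.3% of higher and 68.7% of lower sites still passed. The 6 higher sites were in Angpt1 (1), Klhl1 (2), Cnbd1 (1), Sugct (1) and Zfp804b (1), and the log2 ratio at the 19 sites stayed between 0.24 and 0.65. In the resilient comparison 46 of 49 higher (93.9%) and 13 of 15 lower sites (86.7%) still passed without it. Among all sites called there, 88.3% of higher and 89.9% of lower sites still passed. At the higher sites, library 52 lay at a median log2 ratio of -0.36 to the mean of the controls in the susceptible table and -0.2 in the resilient table. Control library 49, one of the deepest, lay at 0.23 and 0.26, and reached into the stressed range at 6 of 19 and 17 of 49 higher sites. Whether depth moved these values was not tested.

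**Figure D2:**
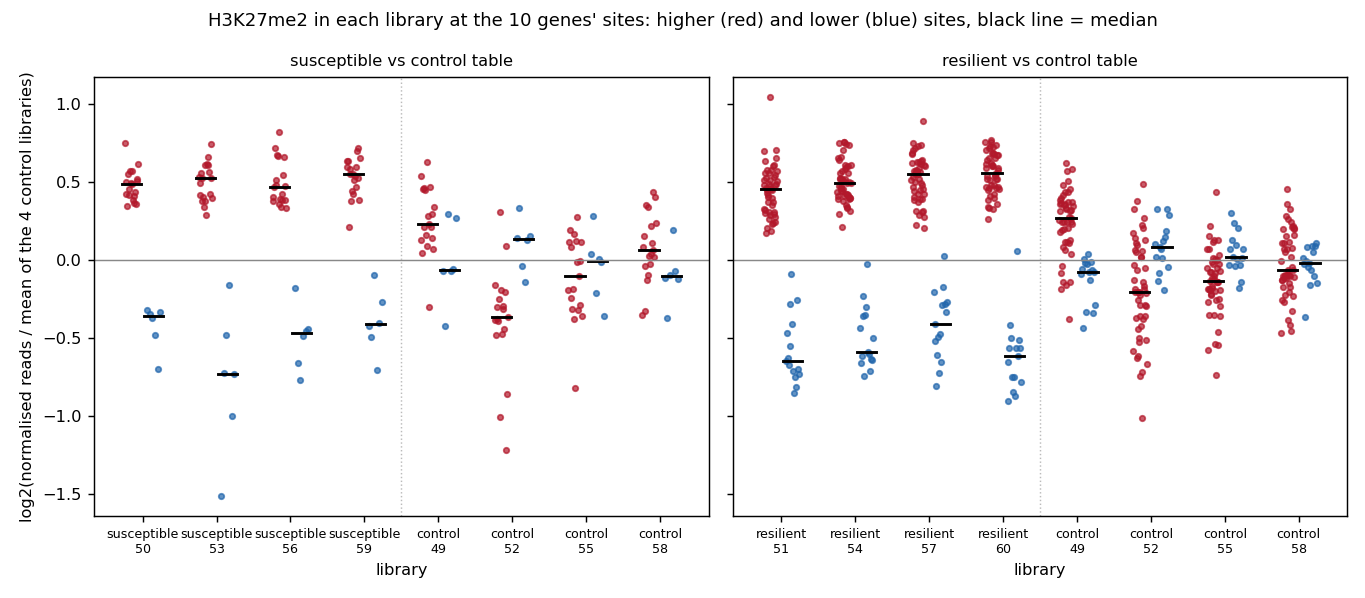
H3K27me2 in each library at the sites of the 10 genes, as log2 of normalised reads over the mean of the 4 control libraries, for the susceptible (left) and resilient (right) tables. Red points are higher sites, blue points lower sites, and black lines medians, and control library 52 spreads widest below 0 at the higher sites.

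The libraries of both groups stood fully apart at 13 of the 25 susceptible sites and 37 of the 64 resilient sites. Over all sites of those tables the groups did not overlap at 57% and 58.6%. Called on sites already selected for a difference, these counts describe the sites and support nothing.

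Angpt1 (chr15:42424723-42676977, minus strand, 252 kb) encodes a secreted ligand of the endothelial Tie2 receptor that stabilises blood vessels. It had 3 higher sites in susceptible mice, and 2 higher and 1 lower in resilient mice. Its leading susceptible site, the one with the smallest adjusted p, was chr15:42528601-42529600, 147 kb into the gene. H3K27me2 there was 93.3, 80.2, 73.4 and 83.8 in susceptible libraries, against 80.6, 49.6, 48.6 and 43.4 in control libraries. Only control library 49 reached the susceptible range. The log2 difference was 0.6 ± 0.19. The leading resilient site, chr15:42548701-42550800, held 177, 168, 204 and 176 in resilient libraries, against 166, 84.5, 133 and 126 in control libraries. These groups did not overlap, though resilient library 54 and control library 49 lay close to each other. A lower site began 3600 bp further on, at chr15:42554401-42555400, with 51.5, 59.9, 70.1 and 43.3 in resilient and 76.1, 87.0, 79.1 and 81.4 in control libraries. The lower site was separated between groups too, and the log2 differences at the 2 neighbours were 0.54 ± 0.18 and -0.54 ± 0.17.

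Tll1 (chr8:64014931-64206271, minus strand, 191 kb) encodes a tolloid-like metalloprotease that trims procollagens and the BMP antagonist chordin. It had the fewest H3K27me2 sites of the 10, 3 over both tables. Its higher site in resilient mice, chr8:64186401-64188000, lay 18.3 kb from the start and held 128, 125, 127 and 129 in resilient libraries, against 89.5, 72.5, 69.5 and 85.3 in control libraries. The 4 resilient libraries were nearly equal, and all stood above every control. The log2 difference was 0.68 ± 0.15, and the site ranked 71 of 4659 by log2 change in the authors' deposited table. Near the end of the gene the mark went the other way in both groups. The site chr8:64030001-64031100 held 77.4, 33.9, 85.2 and 72.2 in susceptible libraries, against 91.8, 107, 99.2 and 89.1 in control libraries. Susceptible library 53 was the lowest, and without it the log2 ratio was -0.31 and the site no longer passed. In resilient libraries the overlapping site chr8:64029901-64031400 held 89.4, 78.5, 93.2 and 78.9, against 119, 126, 130 and 122 in control libraries. Here the groups were well separated, with a log2 difference of -0.54 ± 0.15.

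Col5a2 (chr1:45374321-45503282, minus strand, 129 kb) encodes a chain of type V collagen, which sets the width of collagen fibrils. All of its 5 sites were higher, 2 in susceptible and 3 in resilient mice. The leading resilient site, chr1:45470101-45472500, was 2400 bp long and held 228, 204, 212 and 229 in resilient libraries, against 139, 162, 154 and 134 in control libraries. It ranked 49 of 4659 by adjusted p in the authors' deposited table, the best rank of any site of the 10 genes in that table. The log2 difference was 0.57 ± 0.15, and every resilient library lay far above the highest control. In susceptible mice the leading site chr1:45411901-45412900 held 75.4, 74.1, 73.4 and 77.1, against 70.7, 39.7, 54.5 and 41 in control libraries. Susceptible libraries were tightly grouped and control libraries scattered, and without control library 52 the log2 ratio was 0.44 and the call was lost. The other susceptible site, chr1:45390201-45391200, contains the glycine-repeat exon printed above. It held 89.3, 103, 116 and 81.3 in susceptible libraries, against 96.4, 57, 59.3 and 68.6 in control libraries. The groups overlapped there through control library 49. A resilient site at chr1:45376801-45377800 reached into exon 53, near the end of the gene, and held 74.5 to 87.4 in resilient and 47.3 to 72.9 in control libraries.

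Cpa6 (chr1:10324720-10719945, minus strand, 395 kb) encodes a metallocarboxypeptidase of the extracellular matrix, which removes amino acids from the ends of peptides and whose human form has been linked to epilepsy. It had 1 higher and 1 lower site in susceptible mice, and 5 higher and 2 lower in resilient mice. The leading resilient site, chr1:10523901-10526100, held 239, 237, 226 and 210 in resilient libraries, against 161, 171, 157 and 174 in control libraries. No control came near a resilient library, and the log2 difference was 0.45 ± 0.15. One lower interval, chr1:10402701-10404000, was listed identically in both comparisons. It held 108, 83.3, 87.1 and 97.9 in susceptible libraries, against 103, 174, 167 and 106 in control libraries of that table. In the resilient table it held 87.3, 88.2, 94.1 and 91.1 in resilient libraries, against 99.8, 169, 166 and 105 in control libraries. The difference came from control libraries 52 and 55, while controls 49 and 58 lay close to the stressed values. A higher resilient site ended 2000 bp before it, at chr1:10399701-10400700, with 81.0, 85.8, 75.9 and 78.9 in resilient and 72.3, 48.3, 48.2 and 51.2 in control libraries.

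Fstl5 (chr3:76074270-76710019, plus strand, 636 kb) encodes a secreted glycoprotein of the follistatin-like family. It was the one member without a site in the susceptible table, and had 7 resilient sites, all higher. The sites ran from 0.05 to 0.91 of the gene's length, with a median gap of 95.8 kb. At the leading site, chr3:76241201-76242600, resilient libraries held 117, 106, 129 and 129, against 109, 50.7, 68.5 and 84.5 in control libraries. Control library 49 again reached the resilient range. The log2 difference was 0.66 ± 0.2, and the 7 mean values ranged from 90.7 to 151 in resilient and from 65.6 to 114 in control libraries. Values of susceptible libraries in these windows were not used here, since a table lists a window only where its own comparison passed. The difference between susceptible and resilient mice was therefore not tested.

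Naaladl2 (chr3:23798102-25144261, minus strand, 1350 kb), the longest of the 10, encodes a membrane protein that resembles the peptidase glutamate carboxypeptidase II. It had 2 higher and 1 lower site in susceptible mice, and 8 higher and 1 lower in resilient mice. These 12 H3K27me2 sites all lay in the later part of the gene, 0.46 to 1.0 of its length, and the nearest was 622 kb from the start. The resilient site chr3:24098801-24100000 ranked 7 of 4659 by log2 change in the authors' deposited table. It held 117, 95.5, 94.1 and 91.1 in resilient libraries, against 71, 33.8, 44.4 and 77.5 in control libraries. All resilient libraries stood above all controls, with a log2 difference of 0.87 ± 0.22. A neighbouring resilient site, chr3:24095001-24096000, held 81.0, 77.7, 85.5 and 90.0 against 63.3, 50.7, 58.9 and 61.2 in control libraries, with a narrow spread in both groups. In susceptible mice the leading site chr3:24362501-24363500 held 88.6, 75.6, 94.9 and 81.3, against 66.7, 29.8, 67.1 and 75.7 in control libraries. Without control library 52 its log2 ratio was 0.29 and the call was lost. The lower resilient site, chr3:24256701-24257700, held 55.8, 63.9, 53.8 and 57.8 in resilient libraries, against 80.6, 77.3, 83 and 86.8 in control libraries. These groups were apart, with a log2 difference of -0.5 ± 0.15, while the lower susceptible site, chr3:23890301-23891500, overlapped between groups (-0.41 ± 0.18). A resilient site at chr3:23802601-23803700 lay in the last exon of the gene and held 81.6 to 109 in resilient and 48.3 to 83.8 in control libraries.

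Klhl1 (chr14:96102736-96519102, minus strand, 416 kb) encodes a neuronal kelch-like protein that binds actin. It held 16 sites over both tables, the most of the 10 genes, and shared rank 3 of all protein-coding genes. The resilient table listed 10 higher and 2 lower sites, and 3 higher and 1 lower were listed for susceptible mice. At the leading resilient site, chr14:96294301-96295500, resilient libraries held 97.8, 129, 113 and 101, against 88.3, 79.7, 72.4 and 66.7 in control libraries. The groups did not overlap, and the log2 difference was 0.52 ± 0.16. The leading susceptible site, chr14:96152401-96153400, held 82.0, 75.6, 103 and 78.0 in susceptible libraries, against 62.1, 71.9, 44.7 and 54.4 in control libraries. This is a site where control library 52 was the highest control, and without it the log2 ratio was 0.65. At 5 of the 12 resilient sites the groups did not overlap. The other 7 included chr14:96158001-96159100, where the resilient libraries lay between 83.1 and 85.0 and control library 49 at 85.7 was above all of them.

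Cnbd1 (chr4:18860454-19122526, minus strand, 262 kb) encodes a protein with a cyclic nucleotide-binding domain whose function is little known. With 15 sites it had the densest coverage of the 10, 5.72 sites per 100 kb. It had 3 higher and 2 lower sites in susceptible mice, and 7 higher and 3 lower in resilient mice. The lower interval chr4:18950101-18951300 was listed in both comparisons. It held 62.8, 50.9, 74.4 and 77.1 in susceptible libraries, against 97.8, 112, 101 and 97.0 in control libraries. Resilient libraries held 61, 97.9, 63.4 and 54.4 there, against 94.7, 109, 100.4 and 95.4 in control libraries of the resilient table. All susceptible libraries lay below all controls, whereas resilient library 54 lay among the controls. The log2 differences were -0.63 ± 0.17 and -0.56 ± 0.18. At the leading resilient site, chr4:19040801-19042700, resilient libraries held 161, 176, 182 and 212, against 136, 145, 121 and 129 in control libraries, a log2 difference of 0.46 ± 0.15. Part of Cnbd1 overlaps the annotated gene Gm11867, and 4 of its sites lie in both.

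Sugct (chr13:16857472-17695553, minus strand, 838 kb) encodes the mitochondrial enzyme that hands coenzyme A to glutarate, a step in the breakdown of lysine and tryptophan. It had 3 higher and 4 lower sites in resilient mice, the most lower ones of the 10 genes in that table, and 1 higher in susceptible mice, and none was closer than 458 kb to the start. The susceptible site, chr13:17163601-17164600, held 73.4, 80.2, 79.3 and 87.9, against 62.8, 47.1, 50.6 and 56.8 in control libraries. The groups were separated, with a log2 difference of 0.56 ± 0.15. The leading resilient site, chr13:16963001-16964000, held 76.8, 74.5, 98 and 75.5 in resilient libraries, against 65.9, 41.1, 54 and 50.4 in control libraries. Resilient library 57 stood above the other 3. At the lower site chr13:17184301-17185400, resilient libraries held 53.6, 55.9, 69.1 and 58.9, against 82.5, 84.5, 87.8 and 93.8 in control libraries, a log2 difference of -0.55 ± 0.15 with no overlap. The lower site chr13:16912701-16914200 had the largest adjusted p of the 64 in the authors' deposited table, with resilient libraries from 76.8 to 134 and control libraries from 114 to 143.

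Zfp804b (chr5:6769010-7344756, minus strand, 576 kb) encodes a nuclear zinc finger protein, the paralogue of Zfp804a, whose human counterpart has been linked to schizophrenia. It had 4 sites in each comparison, all 4 higher in susceptible mice, and 3 higher and 1 lower in resilient mice. The leading susceptible site, chr5:7050801-7052000, held 95.9, 97.2, 94.0 and 111, against 74.6, 71.9, 55.4 and 68.6 in control libraries. Every susceptible library lay above every control, with a log2 difference of 0.56 ± 0.16, and without control library 52 the log2 ratio was 0.59. The other 3 susceptible sites overlapped between groups, and their calls were lost without control library 52. The leading resilient site was a lower one near the end of the gene, chr5:6784301-6785500, with 62.1, 72.8, 85.5 and 59.98 in resilient libraries, against 84.4, 126, 108 and 93.0 in control libraries. Resilient library 57 and control library 49 met, and the others stood apart.

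**Figure D3:**
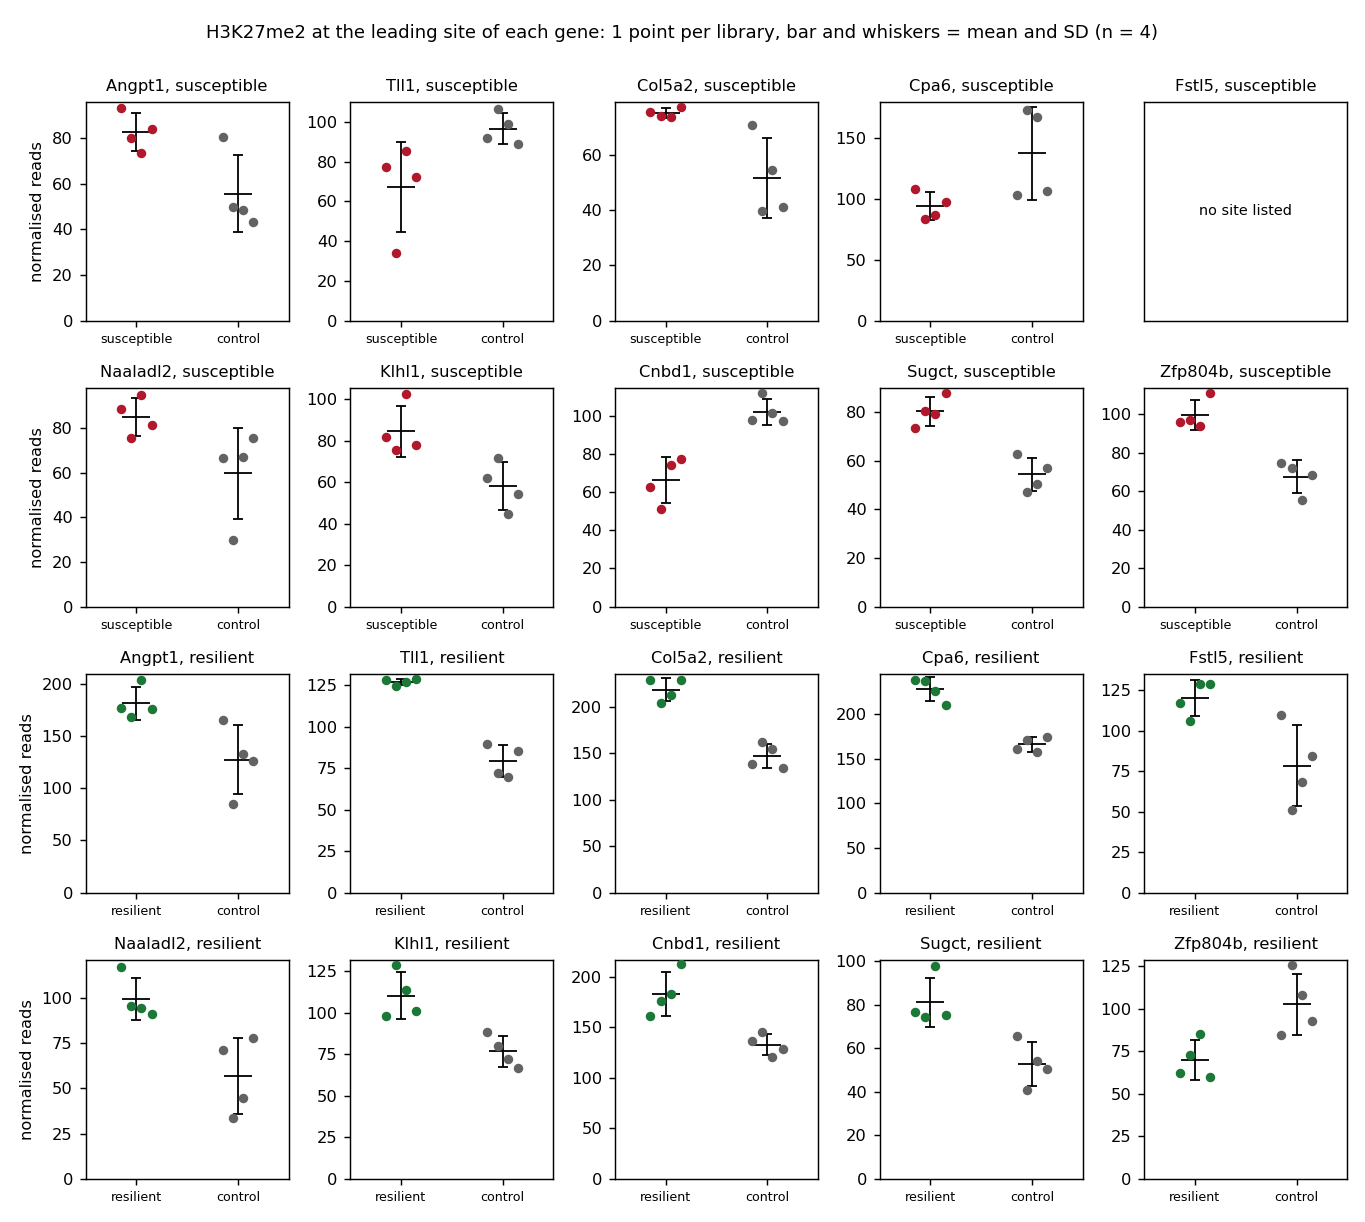
Normalised H3K27me2 reads per library at the leading site of each gene, in the susceptible comparison (upper 2 rows) and the resilient comparison (lower 2 rows), with mean and SD over 4 libraries. Fstl5 has no listed susceptible site, and the 4 resilient libraries of Tll1 lie between 125 and 129, above all 4 controls.

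Susceptible and resilient sites overlapped 8 times, in Angpt1, Tll1, Cpa6, Naaladl2, Klhl1 and Cnbd1, which left 17 susceptible and 56 resilient sites without a partner. In 5 of the 8 the mark was higher in both, and in 3 it was lower in both. Since the 2 comparisons share their controls, equal signs are no separate support. At chr3:23975101-23976100 in Naaladl2, for example, means were 85.9 ± 8.66 in susceptible and 62 ± 15.2 in control libraries of that table, and 85.6 ± 13.0 in resilient and 60.6 ± 14.3 in control libraries of the other (SD, n = 4). In 8 of the 10 genes the resilient table also held both directions, and in Cpa6, Angpt1 and Cnbd1 a higher and a lower site lay 2000, 3600 and 6200 bp apart.

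**Figure D4:**
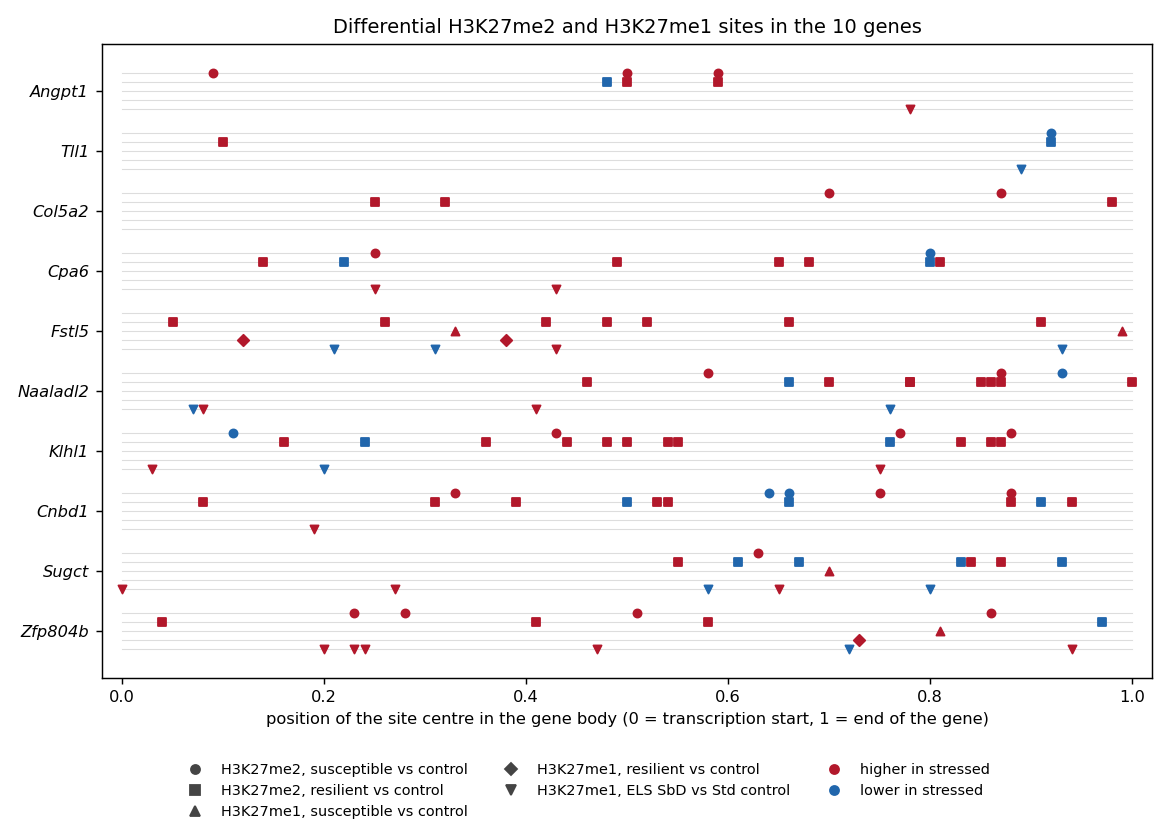
Position of each called site along the 10 genes, as a fraction of the gene body from start (0) to end (1), with 1 line and marker shape per table, red for higher and blue for lower in the stressed group. H3K27me2 sites of Naaladl2 and Sugct begin at 0.46 and 0.55 of the gene, and the marker at 0 in Sugct is the H3K27me1 site at its promoter.

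The mark stood over the antibody background at all of these sites. In the authors' deposited tables, enrichment over IgG at the higher sites ranged from 1.97 to 3.75 in susceptible libraries (1.47 to 2.88 in control libraries), and from 1.95 to 5.2 in resilient libraries (1.22 to 3.45 in control libraries). At lower sites the medians were 2.06 in susceptible and 3.15 in control libraries, and 2.01 in resilient and 2.69 in control libraries.

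H3K27me1 showed few sites in the 10 genes after chronic defeat. In the authors' deposited tables, 4 sites in 3 genes were called in susceptible mice and 3 sites in 2 genes in resilient mice, and all 7 were higher. The susceptible comparison called 4.48% of all windows, 50.3% of them higher, and the resilient comparison 2.54%, 51.7% of them higher. Among protein-coding genes of at least 129 kb, 48.3% held an H3K27me1 site in the susceptible table and 44.3% in the resilient table. Of the 10 genes, 3 and 2 did. The background genes were not matched to the 10 in length. In limma fits over the libraries the unadjusted p was under 0.05 at 4 of 4 and 3 of 3 of these sites. The same held at 96.7% and 97.6% of all listed sites. With adjustment over all 270324 and 275586 windows tested by the authors, 0 of these sites passed. Among all 12122 and 7005 called sites, 0 passed too. The sites had been selected on the same libraries by a test that pools the reads of a group, and limma was fitted on listed sites only, so its p-values are too small. The smallest two-sided p that the exact permutation test of 4 against 4 libraries allows is 0.0286. That test too was run only on sites already selected on these libraries. Groups did not overlap at 2 of 4 susceptible and 3 of 3 resilient sites, where 52.8% and 54.7% of all sites did not.

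H3K27me1 values are given for susceptible libraries 26, 29, 32 and 35, resilient libraries 27, 30, 33 and 36, and control libraries 25, 28, 31 and 34. Fstl5, without a susceptible H3K27me2 site, had H3K27me1 sites in both comparisons. In susceptible mice chr3:76281401-76282400 held 74.1, 67.7, 83.5 and 70.2, against 42.3, 61.1, 58.7 and 42.6 in control libraries. No control reached a susceptible library, and the log2 difference was 0.54 ± 0.15 (limma, unadjusted p = 0.00117, adjusted p = 0.267, exact permutation p = 0.0286). The Fstl5 site of smallest adjusted p, chr3:76703401-76704400, held 114, 93.9, 95.6 and 67.5 in susceptible and 64.4, 46.1, 73.6 and 81.7 in control libraries. These groups overlapped, the log2 difference being 0.48 ± 0.17 (limma, unadjusted p = 0.00856, adjusted p = 0.334, exact permutation p = 0.0857), and the call was lost without susceptible library 26 (log2 ratio 0.37) or control library 28 (0.34). In resilient mice chr3:76152401-76153600 held 112, 108, 139 and 95.4, against 82.0, 88.9, 72 and 89.0 in control libraries. The groups were apart, with a log2 difference of 0.44 ± 0.14 (limma, unadjusted p = 0.00429, adjusted p = 0.441), but the call was lost without resilient library 33 (0.34). The other resilient site, chr3:76316301-76317300, averaged 87.3 ± 6.02 in resilient and 63.4 ± 17.4 in control libraries (SD, n = 4).

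The Zfp804b site over the zinc finger exon, chr5:6875801-6876900, held 109, 99.3, 78.7 and 102 in susceptible libraries, against 58.9, 89.9, 60.8 and 60.4 in control libraries. Control library 28 stood apart from the other 3 and above susceptible library 32. The log2 difference was 0.53 ± 0.15 (limma, unadjusted p = 0.00172, adjusted p = 0.267, exact permutation p = 0.0571). In resilient mice the intronic site chr5:6923201-6924200 held 68.1, 72, 70.6 and 72.3, against 64.1, 48.6, 50.2 and 31.8 in control libraries. Resilient libraries were tight and all above the controls, with a log2 difference of 0.57 ± 0.16 (limma, unadjusted p = 0.00109, adjusted p = 0.424, exact permutation p = 0.0286), and the call was lost without control library 34 (log2 ratio 0.38). Sugct had 1 H3K27me1 site, chr13:17108301-17109900, with 132, 107, 128 and 118 in susceptible libraries, against 73.6, 91.0, 84.3 and 107 in control libraries. Susceptible library 29 and control library 34 nearly met, and the log2 difference was 0.45 ± 0.14 (limma, unadjusted p = 0.00393, adjusted p = 0.274, exact permutation p = 0.0286).

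After early life stress and subthreshold defeat, H3K27me1 sites were listed in most of these genes, on much lower counts. The authors called them with a negative binomial test over 1287727 windows, so the number of sites cannot be set against those of the chronic defeat tables, which come from a G-test over fewer windows. The authors' deposited table listed 27 sites in 9 of the 10 genes, 17 higher and 10 lower in ELS SbD mice, and Col5a2 had 0. It called 9893 sites, 0.768% of windows, of which 67% were higher, and 62.5% of genes of at least 129 kb held a site. Zfp804b had 5 higher sites and 1 lower, Sugct 3 and 2, Naaladl2 2 and 2, Fstl5 1 and 3, Klhl1 2 and 1, and Cpa6 2 and 0. Angpt1 and Cnbd1 had 1 higher site each, and Tll1 1 lower. Group means at these sites ran from 11.8 to 50.1 normalised reads, against 48.7 to 121 at the 7 defeat sites, in tables normalised separately. The groups did not overlap at any of the 27 sites, as at 99% of all sites in the table. By limma, 27 of 27 had an unadjusted p under 0.05 (98.6% of all sites). When adjusted over 1287727 windows, 0 of the 27 passed, as did 0 of all 9893 called sites. The exact permutation test of 3 against 3 libraries cannot go below 0.1, the value at each site.

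Values below are for ELS SbD libraries 40, 44 and 48 and Std control libraries 37, 41 and 45. By log2 change in the authors' deposited table the largest gain of the 17 was in Angpt1, at chr15:42479001-42480000, with 24.1, 36.4 and 30.2 in ELS SbD libraries, against 13.8, 9.72 and 12.2 in Std control libraries. The log2 difference was 1.27 ± 0.21 (limma, unadjusted p = 2.33e-05, adjusted p = 0.0896). The H3K27me1 sites of Fstl5 after chronic defeat, 2 susceptible and 2 resilient, were all higher. In ELS SbD mice Fstl5 was lower in H3K27me1 at 3 of 4 sites, which lay at other intervals. Its leading site chr3:76664401-76665700 held 20.6, 28.9 and 17.3 in ELS SbD and 49.4, 57.3 and 43.6 in Std control libraries, a log2 difference of -1.16 ± 0.22 (limma, unadjusted p = 8.2e-05, adjusted p = 0.0896). In Tll1, chr8:64034801-64036100 held 32.1, 13.1 and 15.1 in ELS SbD libraries, against 41.5, 45.7 and 42.7 in Std control libraries. ELS SbD library 40 stood above the other 2 but still below every Std control. The leading Zfp804b site, chr5:7206301-7207400, held 51.6, 42.9 and 42.1 in ELS SbD and 22.7, 16.5 and 24.4 in Std control libraries, a log2 difference of 1.08 ± 0.2 (limma, unadjusted p = 8.69e-05, adjusted p = 0.0896). In Naaladl2 a gain and a loss lay 4300 bp apart: chr3:25041301-25042300 held 37.8, 42 and 50.7 in ELS SbD and 14.8, 27.2 and 20.9 in Std control libraries. At chr3:25046601-25047600 the values were 14.9, 14.9 and 15.1 in ELS SbD and 35.6, 26.2 and 29.6 in Std control libraries.

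The remaining genes gave leading sites of the same size. Cpa6, higher at both of its sites, held 25.2, 28.9 and 31.3 at chr1:10549801-10550900 in ELS SbD libraries, against 12.8, 15.6 and 6.97 in Std control libraries. Its log2 difference was 1.27 ± 0.25 (limma, unadjusted p = 0.000125, adjusted p = 0.0896). The leading Klhl1 site was a lower one, chr14:96436701-96438000, with 13.8, 20.5 and 15.1 in ELS SbD and 37.5, 31.1 and 34.9 in Std control libraries. All 3 ELS SbD libraries stood well below the Std controls, a log2 difference of -1.04 ± 0.2. The single Cnbd1 site, chr4:19072901-19074100, held 44.7, 37.3 and 48.5 in ELS SbD libraries, against 23.7, 23.3 and 20.9 in Std control libraries. In Sugct, chr13:17153201-17154300 held 42.4, 53.2 and 46.4 in ELS SbD libraries, against 24.7, 22.4 and 24.4 in Std control libraries. At both sites the Std controls lay close together, with log2 differences of 0.91 ± 0.19 in Cnbd1 and 0.96 ± 0.18 in Sugct.

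Enrichment was low in this cohort. In the authors' deposited table, ELS SbD enrichment over IgG was below 1 at 16 of the 27 sites. Among all its sites, 37.2% were below 1 in ELS SbD mice. Both groups were below 1 at 10 of the 27, among them the leading sites of Angpt1, Tll1, Klhl1 and Cnbd1. The share of all sites below 1 in both groups is not given here. At higher sites of the 10 genes the medians were 1.1 in ELS SbD and 0.69 in Std control libraries, and at lower sites 0.55 in ELS SbD and 1.19 in Std control libraries.

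**Figure D5:**
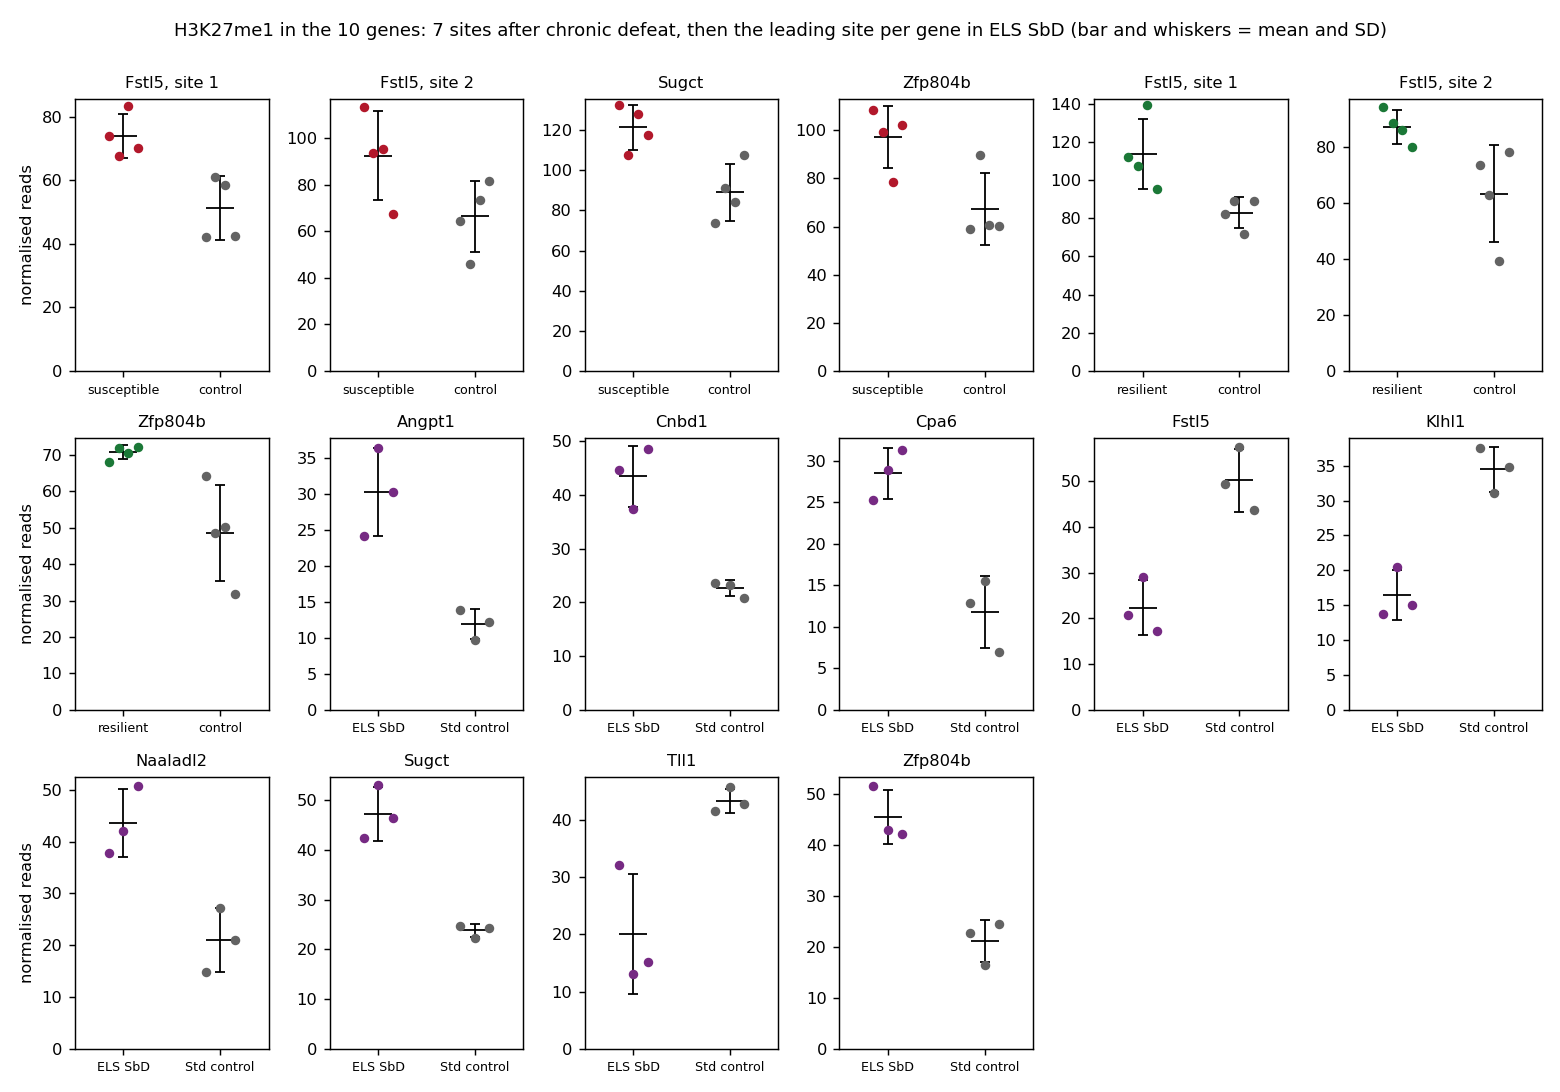
Normalised H3K27me1 reads per library at the 7 called sites after chronic defeat (susceptible first, then resilient) and at the leading ELS SbD site of 9 genes, with mean and SD over 4 or 3 libraries. At the ELS SbD sites the groups do not overlap, and the 4 Zfp804b resilient libraries lie between 68.1 and 72.3.

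The single site at a promoter was an H3K27me1 site of this cohort in Sugct, chr13:17695001-17696000. It covers the GENCODE start of Sugct, with its first exon (chr13:17695304-17695553), and overlaps Mplkip, which is transcribed the other way. It held 53.9, 38.3 and 58.2 in ELS SbD libraries, against 23.7, 24.3 and 31.4 in Std control libraries, a log2 difference of 0.89 ± 0.21 (limma, unadjusted p = 0.000791, adjusted p = 0.144). Its enrichment over IgG in the authors' deposited table was 0.28 in ELS SbD and 0.16 in Std control libraries. Both RefSeq promoters (GRCm38.p6) that this site touches are printed below, since it is the one called site of the 10 genes at a promoter. RefSeq places the Sugct start further into the gene than GENCODE does, so its Sugct promoter window (chr13:17694716-17695015, minus strand) lies inside the GENCODE gene body. Capitals mark bases inside the site, which are 15 of 300 for Sugct and all 300 for Mplkip (chr13:17695163-17695462, plus strand).
Sugct promoter: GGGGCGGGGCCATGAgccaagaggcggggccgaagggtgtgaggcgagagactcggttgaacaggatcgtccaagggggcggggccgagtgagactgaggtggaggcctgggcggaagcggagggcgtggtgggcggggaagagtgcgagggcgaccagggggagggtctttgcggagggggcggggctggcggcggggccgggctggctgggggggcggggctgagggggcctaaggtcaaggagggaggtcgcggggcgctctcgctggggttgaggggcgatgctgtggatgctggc
Mplkip promoter: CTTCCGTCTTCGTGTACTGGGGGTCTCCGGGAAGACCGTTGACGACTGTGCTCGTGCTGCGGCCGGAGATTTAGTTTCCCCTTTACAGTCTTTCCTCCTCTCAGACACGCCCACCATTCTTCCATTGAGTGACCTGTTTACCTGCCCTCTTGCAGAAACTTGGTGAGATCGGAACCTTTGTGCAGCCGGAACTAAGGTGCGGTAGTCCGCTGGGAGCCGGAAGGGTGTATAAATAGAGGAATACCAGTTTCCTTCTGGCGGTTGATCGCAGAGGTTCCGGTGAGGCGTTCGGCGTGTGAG
Of the Sugct window 73.7% of bases were G or C and it held 25 CpG dinucleotides, against medians of 52.7% and 7 over 32851 RefSeq promoters of equal length. A GC share at least as high was found in 5.1% of them. The Mplkip window had 55.3% G or C and 20 CpG.

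Both marks had a listed site at the same place once. In Cpa6, chr1:10620501-10621500 was listed for H3K27me2 in susceptible mice and for H3K27me1 in ELS SbD mice. H3K27me2 was 84.7, 80.2, 86.1 and 90.4 in susceptible libraries, against 71.3, 47.1, 49.6 and 78.9 in control libraries. H3K27me1 was 28.7, 32.7 and 28.1 in ELS SbD libraries, against 11.9, 15.6 and 16.6 in Std control libraries. Neither pair of groups overlapped, as at 57% of all susceptible H3K27me2 sites and 99% of all ELS SbD sites. Enrichment over IgG for H3K27me2 was 1.97 in susceptible and 1.59 in control libraries. For H3K27me1 it was 0.77 in ELS SbD and 0.66 in Std control libraries, below the antibody background in both. The H3K27me1 log2 difference was 0.99 ± 0.19 (limma, unadjusted p = 0.00014, adjusted p = 0.0896), and the H3K27me2 call was lost without control library 52 (log2 ratio 0.36). This was 1 of 89 H3K27me2 sites (1.12%) and 1 of 34 H3K27me1 sites (2.94%).

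Relatives of the 10 genes were compared by counts. Of all protein-coding genes of at least 129 kb, 4.27% (susceptible) and 5.88% (resilient) held an H3K27me2 site. For H3K27me1 it was 48.3% (susceptible), 44.3% (resilient) and 62.5% (ELS SbD). Shares for genes of the lengths in the lists below are not given. The 10 genes were picked for H3K27me2 sites, so a list with few such sites shows no contrast with them. Of 58 genes from the same families, 0 held an H3K27me2 site in the susceptible table and 2 in the resilient table, both fibrillar collagens like Col5a2. Col3a1, the chain of type III collagen, had 1 higher site with 106 ± 12.2 in resilient and 79.5 ± 7.8 in control libraries. Col24a1 had 1 lower site with 55.3 ± 8.36 in resilient and 79.8 ± 5.77 in control libraries (SD, n = 4). Zfp804a, the paralogue of Zfp804b, and Spock3, a testican related to follistatin-like proteins, had no H3K27me2 site but many H3K27me1 sites. Zfp804a had 8 in susceptible and 2 in resilient mice, and Spock3 44 and 15, all higher. Over all 58 relatives, 10 genes held H3K27me1 sites in the susceptible table (56 higher, 11 lower), 11 in the resilient table (23 higher, 7 lower) and 13 in the ELS SbD table (15 higher, 7 lower). Of 19 genes of H3K27 methylation, 0 held an H3K27me2 site in either table, while 9, 9 and 5 held H3K27me1 sites in the susceptible, resilient and ELS SbD tables, with 3 higher and 13 lower, 6 higher and 12 lower, and 2 higher and 7 lower sites. Markers of medium spiny neurons (12), astrocytes (5), oligodendrocytes (4) and microglia (4) held 0 H3K27me2 sites. For H3K27me1, Foxp1 of the neuron list had 2 higher susceptible sites, 2 higher and 1 lower resilient and 4 higher ELS SbD sites, and Rgs9 and Pde10a had 2 and 3 higher ELS SbD sites. The microglial gene Cx3cr1 had 6 lower susceptible and 1 lower resilient sites, P2ry12 had 1 lower ELS SbD site, and the oligodendrocyte gene Mbp had 1 higher ELS SbD site. Among 13 markers of vascular and fibroblast cells, only Col3a1, counted above among the collagens, held an H3K27me2 site, in the resilient table. For H3K27me1, 0 of these markers held a site. Any part of those cells in the Angpt1, Col5a2 and Tll1 sites was not tested.

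The genes most like the 10 by number of H3K27me2 sites were C130026I21Rik, Sfi1, Gpc5, Cntnap5b and Sprr2a2, with 20, 17, 16, 13 and 11 sites over both tables. Higher sites were the more frequent in 3 of these 5 genes. Over the 10 genes, 68 were higher and 21 lower. Of all called sites, 69.4% (susceptible) and 79.5% (resilient) were higher, so this direction is not particular to these genes. Gpc5, a glypican, had 7 higher and 1 lower in susceptible and 6 higher and 2 lower in resilient mice. Cntnap5b, a contactin-associated protein gene, had 4 higher and 0 lower in susceptible and 8 higher and 1 lower in resilient mice, and Sprr2a2 had 1 higher and 1 lower, and 6 higher and 3 lower. C130026I21Rik had 3 higher and 1 lower in susceptible mice, but 0 higher and 16 lower in resilient mice. Sfi1 had 7 susceptible and 10 resilient sites, all lower.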

How the data were processed

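H3K27me1, H3K27me2 and IgG CUT&RUN libraries of mouse nucleus accumbens (72 samples in 21 groups) were the source of 5 tables, which use 30 mark libraries. Per the submitters' processing notes, Trim Galore 0.6.5, cutadapt 2.10, Bowtie2 2.4.1, SAMtools 1.10, MACS2 2.2.6 and mm10 were used. Per the file headers, the authors compared groups with diffReps 1.55.4 in 1000-bp windows moved by 100 bp, with IgG as background, a p cutoff of 0.0001, and a G-test on reads pooled by group (chronic defeat) or a negative binomial test (ELS SbD). Per the file headers, the deposited signal columns hold mean normalised reads per group, and the per-library values are normalised reads, not raw reads. The deposited ratio columns hold enrichment over IgG, the log2 columns the change between groups, and the p-value columns the authors' test with Benjamini-Hochberg adjustment.

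Sites past an adjusted p of 0.05 were joined to GENCODE M21 gene bodies plus 1000 bp before the start. The members, lists and tests were chosen with earlier results of these data known. All 10 genes are named. The leading site of a gene in a table has the smallest adjusted p among sites with a mean of at least 10 normalised reads, and the 5 most similar genes are the other genes with most H3K27me2 sites. Per table, log2(value + 1) was fitted with limma 3.58.1 (R 4.3.3) on all listed sites, with p-values adjusted over all windows the header names. Exact permutation tests are two-sided. The G-test was rebuilt from normalised values (within 0.05 log10 of the deposited p-value at 100.0% of sites in the 4 defeat tables) to leave out libraries. For ELS SbD, where it came that close at 6.06%, limma was used. The limma fit was also run on simulated data. The simulated sites were not selected for a difference, so that run does not cover the selection of the listed sites. Alternatives were a stricter adjusted p (0.001), midpoint assignment, a minimum of 20 normalised reads, limma calls, a pseudocount of 5, at least 50% overlap between marks and leaving out each library. edgeR was not run, since no column holds whole reads. IgG values enter only through the deposited ratios. No library column was identical to another. The carboxypeptidase Cpo of the relatives was not matched. Python 3.11.15, pandas 2.3.3, numpy 2.4.6 and scipy 1.17.1 were used.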

Additional observations from a re-analysis of the deposited data

Results flagged for a closer look

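At 3 of 48 groups of 4 libraries tested at leading sites, 1 library stood apart from the other 3, and chance sets about 1 in 20 groups apart in this way. At the Zfp804b exon 2 site for H3K27me1 in the susceptible comparison, control library 28 held 89.9 normalised reads and the nearest control 60.8. At the leading Sugct site for H3K27me2 in the resilient comparison, resilient library 57 held 98 and the nearest resilient library 76.8. At the leading Angpt1 site for H3K27me2 in the susceptible comparison, control library 49 held 80.6 and the nearest control 49.6.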

How the results depend on the processing

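Only the stricter adjusted p and 1 library moved a count of sites by over 1.5 times. At an adjusted p of 0.001, the susceptible H3K27me2 count was 11 (8 higher, 3 lower) against 25, the H3K27me1 counts were 2 (susceptible), 0 (resilient) and 0 (ELS SbD) against 4, 3 and 27, and the overlap of the marks was 0 against 1. With each library left out, susceptible H3K27me2 counts ran from 12 (without control library 52) to 25, resilient from 59 to 64, susceptible H3K27me1 from 3 to 4, and resilient from 2 to 3. For ELS SbD the limma count was 27 each time, which says nothing about stability, since 98.6% of all listed sites pass that test. No result reversed. Of the other alternatives, 63 counts kept within 1.5 times, and 305 of 312 values at leading sites kept direction and call. The limma alternatives and all ELS SbD values at leading sites rest on unadjusted limma p-values. In each comparison 93.3% to 98.6% of all listed sites had such a p under 0.05, so these repeats say little about stability. The other 7 values at leading sites kept direction and lost the call, each through 1 library. For H3K27me2 they were Col5a2 (0.44) and Naaladl2 (0.29) without control library 52, and Tll1 (-0.31) without susceptible library 53. For H3K27me1 they were Fstl5 in susceptible (0.37 and 0.34) and resilient mice (0.34) and Zfp804b in resilient mice (0.38). No paired analysis was run, since each label carries only a running library number and does not say whether libraries were handled in sets. The ELS SbD libraries had 5.0 to 7.78 reads per bin. Intervals for counting error are not given, since values are normalised reads.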
